A study of Mus musculus with 7 samples.

Results

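The transcripts described here encode 10 collagen chains of the muscle interstitium, chosen by gene symbol from the 31531 genes of the table of normalized counts: Col1a1, Col1a2, Col3a1, Col5a1 and Col5a2 (fibrillar collagens), Col6a1, Col6a2 and Col6a3 (type VI collagen), and Col12a1 and Col14a1 (fibril-associated collagens). All 10 were found, and all 10 passed the filter of a mean normalized count of at least 5, as did 25791 genes in all. They were measured by RNA sequencing in muscle fibers of E17.5 fetuses, in 4 WT and 3 dyW libraries. WT and homozygous dyW fetuses came from crosses of heterozygous dyW C57BL/6 mice, and dyW is a disrupted allele of Lama2, the gene of the alpha chain of the main muscle laminin, so that these fetuses model LAMA2-congenital muscular dystrophy. The allele is carried by every cell of the fetus. The fibers were released from the epaxial (back) muscles with dispase and collagenase and recovered on a strainer, which does not select fibers by a marker. The labels give no litter and do not say whether a library held the fibers of more than 1 fetus, so P-values measure the spread between these libraries.

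Fibrillar collagens assemble into the cable-like fibrils of connective tissue: type I is the bulk of the fibril, type III accompanies it in soft tissues, and type V nucleates the fibril and limits its diameter. Type VI collagen forms beaded microfilaments next to the basement membrane of muscle fibers, and mutations of its chains cause congenital muscular dystrophies of their own. Types XII and XIV lie on the fibril surface and link it to other matrix molecules. In muscle these genes are known mainly as products of interstitial fibroblasts and tendon cells rather than of the fiber itself, and type I collagen without type III is typical of bone. Exons of other annotated genes overlap 10.3% of the exon bases of Col1a2, 5.86% of those of Col12a1 and at most 3.83% of those of the other members. In bulk RNA, fewer cells of a type and less RNA per cell cannot be told apart.

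Several libraries stood apart before any collagen was considered. Every normalized count was a whole multiple of the value of 1 read, and the reads on genes so recovered ran from 470804 to 2220813 for WT and from 3663905 to 18297106 for dyW, so that depth and genotype cannot be told apart. Lama2 was at 90.6 to 111 normalized counts in the 4 WT libraries, 4.29 in dyW1 and 6.07 in dyW2, but at 139.7 in the third, which is therefore called the library labelled dyW3. In the WT libraries the level of Lama2 per kb of exon was 0.914 to 1.61 times the median of 1330 odorant and vomeronasal receptor genes, which serve as a gauge of reads on genes not used in muscle, so a WT level this low is a weak check of the labels. In the library labelled dyW3 Lama2 was at 7.83 per kb. The median receptor gene there was at 0.676 per kb, and 5% of receptor genes exceeded 38.1. The 6 bone markers summed to 12216 normalized counts in dyW1, with Ibsp, a matrix protein of mineralized tissue, at 8191, against 104 to 193 in the WT libraries, 0 in dyW2 and 2.93 in the library labelled dyW3. In dyW1 the 8 myofiber markers summed to 65.4, with 3 of them at 0 and skeletal muscle actin, Acta1, at 4.09, against 2532 to 67810 in the WT libraries and 7208 and 4267 in the other dyW libraries. WT1 held the 6 cartilage markers at 14618 (Hapln1 at 4185) against 138 to 3961 in the other WT libraries and 17.1 to 439 in the dyW libraries. Results that rest on dyW1, WT1 or the library labelled dyW3 are therefore given with and without them.

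Col5a2, Col1a2 and Col12a1 were higher in the dyW than in the WT libraries. Col5a2 was the only member past the thresholds used in the study (adjusted P-value under 0.01 and log2 fold change over 1.5), where 0.0659% of all genes tested were called higher. No member was lower at an adjusted P-value under 0.01 or 0.05, where 18.7% and 29.6% of all genes were, nor with a negative sign at an unadjusted limma P-value under 0.05. By the second rule, an adjusted P-value under 0.05 with the same fold change, these 3 members passed, against 1.004% of all genes and 3.98% of the 6111 genes with a mean of at least 50. The median log2 fold change of the 10 members was 1.38, and that of all genes tested was −1.99 (limma on log2(normalized count + 1), Benjamini-Hochberg adjustment over all genes tested). Over the 6111 genes with a mean of at least 50, a limit that all 10 members pass, the median was 0.20. With every library brought to 1 common total the medians of the members and of all genes tested were 2.53 and −0.98, and after quantile normalization 0.79 and −0.03. The second rule called 259 genes higher and 7625 lower in all at the deposited scaling, 1140 and 4473 with the common total, and 101 and 248 after quantile normalization. At the deposited scaling 9 of the 10 members had a positive log2 fold change, against 20.4% of all genes tested, and after quantile normalization Col6a1, Col6a2 and Col14a1 were negative. Every dyW library lay above every WT library for 3 of the 10 members, against 3.28% of all genes tested and 12.2% of those with a mean of at least 50. With 4 against 3 libraries, an exact two-sided permutation test of a single gene cannot give a P-value under 0.0571.

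**Figure D1:**
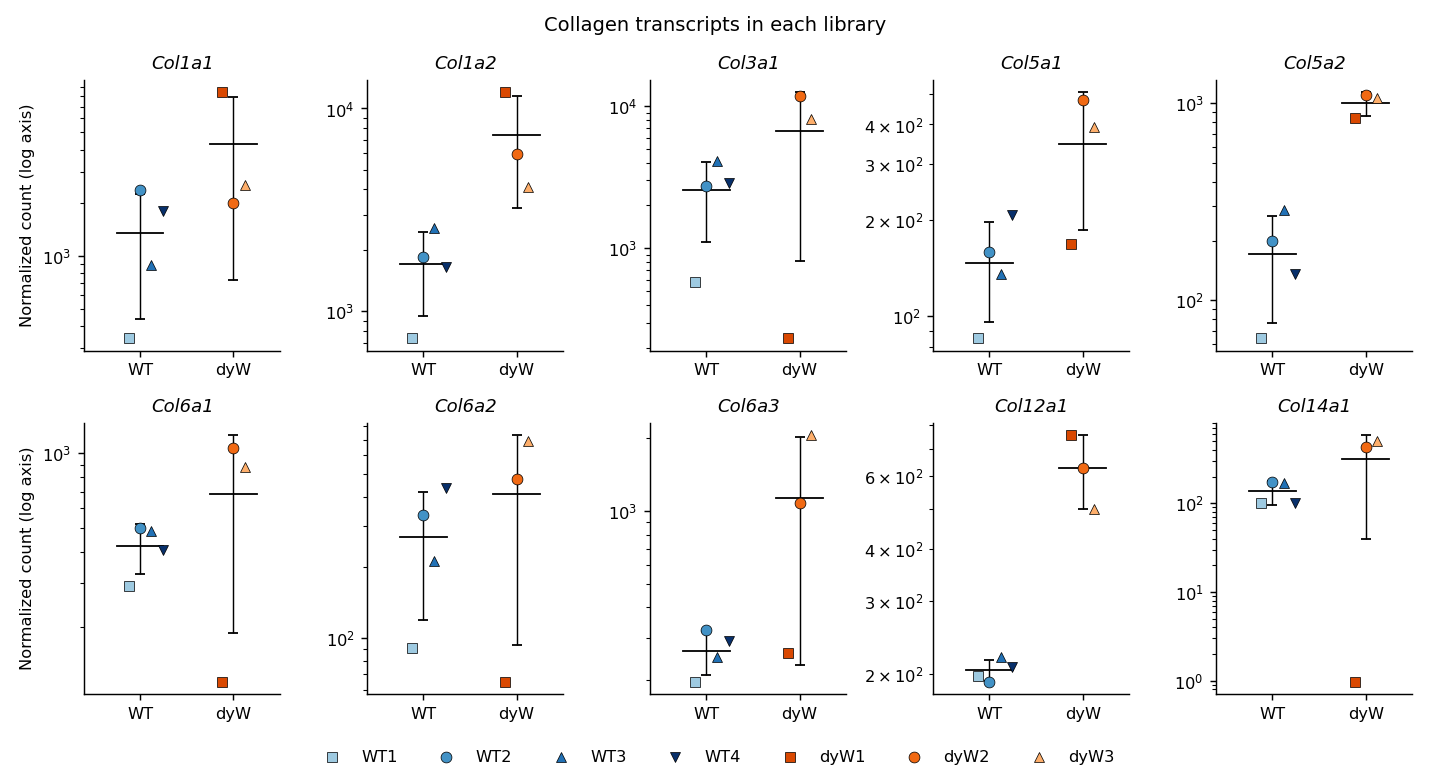
Normalized count (log axis, a different range in each panel) of each of the 10 collagen genes in the 4 WT (blue) and 3 dyW (orange) libraries, with the mean (line) and SD (bar) of each group. Only Col1a2, Col5a2 and Col12a1 have no overlap between the groups, and for Col3a1, Col6a1, Col6a2 and Col14a1 the dyW1 library (orange square) lies below every WT library while the other dyW libraries lie above.

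Type I collagen is a trimer of the products of Col1a1 (chromosome 11, 94827050 to 94843868, plus strand, GRCm39) and Col1a2 (chromosome 6, 4504814 to 4541555, plus strand). Col1a2 was at 736, 1850, 2581 and 1655 normalized counts in WT1 to WT4, and at 12046, 5971 and 4104 in dyW1, dyW2 and the library labelled dyW3. Every dyW library thus lay above every WT library, and dyW1 was the highest of all. The mean was 1705 ± 759 (SD, n = 4) for WT and 7374 ± 4153 (SD, n = 3) for dyW, a log2 fold change of 2.10 with a 95% interval of 0.89 to 3.31 (limma adjusted P-value of 0.0157). Leaving out dyW1 gave 1.67 (limma adjusted P-value of 0.0658), and without the library labelled dyW3 it was 2.45 (limma adjusted P-value of 0.0181). After quantile normalization it was 3.46 and did not pass (limma adjusted P-value of 0.0600). Col1a1 was at 341, 2362, 886 and 1800 in WT and at 8467, 1987 and 2531 in dyW. Its groups overlapped, since WT2 lay above dyW2, and the log2 fold change of 1.71 (95% interval −0.01 to 3.43) did not pass (limma adjusted P-value of 0.114), whereas with every library at 1 common total it was 2.86 and passed the second rule (limma adjusted P-value of 0.0249). Without dyW1 its log2 fold change was 1.07, and without both WT1 and dyW1 it was 0.53 (limma adjusted P-value of 0.485).

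Type III collagen is a homotrimer of the product of Col3a1 (chromosome 1, 45350698 to 45395840, plus strand), and in skin, vessels and muscle it forms fibrils together with type I. Col3a1 was at 581, 2729, 4129 and 2870 normalized counts in the WT libraries and at 232, 11721 and 8082 in the dyW libraries. The dyW1 library was the lowest of the 7 and the other dyW libraries were the highest. Across all 7 libraries the log2 fold change was 0.43 with an interval of −2.52 to 3.38 (limma adjusted P-value of 0.823), and leaving out dyW2 turned it to −0.60, the library labelled dyW3 to −0.33 and WT1 to −0.18. Without dyW1 it was 2.22 (limma adjusted P-value of 0.0652), and without both WT1 and dyW1 it was 1.61 with an interval of 0.78 to 2.45 (limma adjusted P-value of 0.0190).

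The genes of Col1a2 and Col3a1, which took opposite places in dyW1, are shown by the 250 bases before their annotated starts. The windows come from RefSeq and are numbered on GRCm38.p6, at chr6:4505368-4505617 and chr1:45311288-45311537, both on the plus strand. Capitals mark CCAAT in the Col1a2 window and TATAAA in the Col3a1 window.
Col1a2: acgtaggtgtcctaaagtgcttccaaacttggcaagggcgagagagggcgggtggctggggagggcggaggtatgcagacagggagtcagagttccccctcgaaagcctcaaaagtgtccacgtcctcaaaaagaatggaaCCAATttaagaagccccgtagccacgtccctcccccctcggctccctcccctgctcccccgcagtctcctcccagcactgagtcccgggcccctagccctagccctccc
Col3a1: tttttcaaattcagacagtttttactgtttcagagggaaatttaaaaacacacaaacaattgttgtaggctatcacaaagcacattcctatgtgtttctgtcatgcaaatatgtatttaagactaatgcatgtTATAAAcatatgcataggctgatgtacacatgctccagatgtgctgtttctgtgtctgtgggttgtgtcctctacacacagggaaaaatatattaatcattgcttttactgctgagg
The Col1a2 window had 62% G and C, with its CCAAT beginning 109 bases before the start, and the Col3a1 window had 35.2% G and C, with its TATAAA beginning 117 bases before the start. The letters CCAAT (or ATTGG) and TATAAA (or TTTATA), sought on both strands, occurred in 33.9% and 12.4% of all 32851 windows of this length. Windows were matched for 6 of the 10 members, and of those only the windows of Col1a2 and Col3a1 held either motif. A match is a description of letters and not a site of binding.

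Type V collagen is made mostly of the products of Col5a1 (chromosome 2, 27776397 to 27929526, plus strand) and Col5a2 (chromosome 1, 45412554 to 45542442, minus strand). Col5a2 lies 16713 bases beyond the end of Col3a1, with the ends of both genes facing each other. Col5a2 was at 64.0, 200, 287 and 135 normalized counts in the WT libraries, where WT1 held only 12 reads of it, and at 839, 1101 and 1061 in the dyW libraries. The lowest dyW library was well above the highest WT library, and the dyW libraries differed among themselves by no more than 1.31-fold. The mean was 172 ± 94.9 (SD, n = 4) for WT against 1000 ± 141 (SD, n = 3) for dyW, a ratio of 5.83, and the log2 fold change was 2.73 with an interval of 1.39 to 4.06 (limma adjusted P-value of 0.00780). Without dyW1 it was 2.85, without the library labelled dyW3 2.68 and without both WT1 and dyW1 2.44, with limma adjusted P-values of 0.0201, 0.0182 and 0.0182, which do not pass the stricter rule. After quantile normalization it was 2.27 and passed neither rule (limma adjusted P-value of 0.128).

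Col5a1 behaved less evenly. It was at 85.3, 159, 135 and 208 in the WT libraries and at 169, 476 and 394 in the dyW libraries, so that dyW1 lay within the WT range. The log2 fold change was 1.17 with an interval of −0.16 to 2.50 (limma adjusted P-value of 0.156), and without dyW1 it was 1.62 (limma adjusted P-value of 0.0731). At 1 common total it was 2.32 and passed the second rule (limma adjusted P-value of 0.0202). Both type V chains were close to the level of receptor genes in part of the WT libraries. The level of Col5a2 per kb was 1.68 to 7.04 times the median receptor gene in WT and that of Col5a1 was 2.69 to 4.25 times it, whereas the median receptor gene was at 0 in dyW1 and dyW2 and at 0.676 per kb in the library labelled dyW3. The level per kb that 5% of receptor genes exceeded was 10.2 to 23.0 in the WT libraries, 1.44 in dyW1 and 0.0431 in dyW2, but 38.1 in the library labelled dyW3, above every WT library.

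The type VI chains were split by dyW1. Col6a1 (chromosome 10, 76543440 to 76562283, minus strand) and Col6a2 (chromosome 10, 76429660 to 76459549, minus strand) lie 83890 bases apart and encode the short chains of the type VI monomer. Col6a1 was at 293, 502, 488 and 409 normalized counts in WT and at 120, 1056 and 881 in dyW. Col6a2 was at 90.6, 334, 213 and 434 in WT and at 65.2, 478 and 692 in dyW. For both genes dyW1 was the lowest library and the other dyW libraries were the highest. The log2 fold change was 0.22 for Col6a1, with an interval of −1.51 to 1.95, and 0.28 for Col6a2, with an interval of −1.78 to 2.33 (limma adjusted P-values of 0.846 and 0.838). Without dyW1 these were 1.22 and 1.32, which did not pass either (limma adjusted P-values of 0.113 and 0.203). Their sign turned without dyW2 (−0.34 and −0.11) and without the library labelled dyW3 (−0.21 and −0.38), and that of Col6a2 also without WT1 (−0.17). After quantile normalization they were −0.46 and −0.43.

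Col6a3 (chromosome 1, 90693645 to 90771780, minus strand) encodes the long chain of the same monomer. It was at 197, 324, 248 and 289 in the WT libraries and at 260, 1079 and 2062 in the dyW libraries. Here dyW1 fell inside the WT range rather than below it, and the library labelled dyW3 was the highest. The mean was 265 ± 54.5 (SD, n = 4) for WT against 1134 ± 902 (SD, n = 3) for dyW, and the log2 fold change of 1.68 did not pass (interval 0.09 to 3.26, limma adjusted P-value of 0.0964). Without dyW1 it was 2.51 with an interval of 1.25 to 3.78 (limma adjusted P-value of 0.0145), and without the library labelled dyW3 it was 1.02 (limma adjusted P-value of 0.270). At 1 common total it was 2.82 and passed the second rule (limma adjusted P-value of 0.0200). The sum of the 3 type VI chains was 581 to 1160 normalized counts in WT and 445, 2613 and 3635 in dyW.

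Col12a1 (chromosome 9, 79506268 to 79626135, minus strand), whose product is abundant on fibrils of tendon and muscle fascia and whose mutations cause a myopathy, varied less in WT than the other members, by 1.15-fold. Its normalized counts were 197, 191, 219 and 208 in the WT libraries and 753, 628 and 500 in the dyW libraries, without overlap. The mean was 204 ± 12.3 (SD, n = 4) for WT against 627 ± 127 (SD, n = 3) for dyW, a ratio of 3.07, and the log2 fold change was 1.60 with an interval of 0.61 to 2.58 (limma adjusted P-value of 0.0212). Leaving out dyW1 gave 1.45 (limma adjusted P-value of 0.0635), and without the library labelled dyW3 it was 1.75 (limma adjusted P-value of 0.0313). Without both WT1 and dyW1 it was 1.44 and did not pass (limma adjusted P-value of 0.0548). After quantile normalization it was 0.72 and did not pass (limma adjusted P-value of 0.593). In the WT libraries its level per kb was 1.84 to 3.93 times the median receptor gene, and in WT1, WT2 and WT4 it lay under the level that 5% of receptor genes exceeded. The part of such reads in the difference was not tested.

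Col14a1 (chromosome 15, 55171140 to 55384199, plus strand), the gene of the related fibril-associated chain of fetal muscle and tendon connective tissue, had the widest spread. It was at 101, 175, 168 and 101 in the WT libraries and at 0.974, 426 and 509 in the dyW libraries. The dyW1 value rests on 10 reads among 14363788, and lies under the level per kb that 5% of receptor genes exceeded in that library, while the other dyW libraries were the highest of the 7. The log2 fold change was −0.81 with an interval of −4.76 to 3.13 (limma adjusted P-value of 0.747). Without dyW1 it was 1.82 with an interval of 0.49 to 3.14 (limma adjusted P-value of 0.0443), without both WT1 and dyW1 it was 1.69 (limma adjusted P-value of 0.0539), and with every library brought to 1 common total it was 0.17.

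Without dyW1, both remaining dyW libraries lay above every WT library for 9 of the 10 members, all but Col1a1, against 6.32% of all genes tested and 20.4% of those with a mean of at least 50. The fit without dyW1 called 3 members higher at an adjusted P-value under 0.05, namely Col5a2, Col6a3 and Col14a1, against 1.09% of the genes tested in that fit. The fit without both WT1 and dyW1 also called 3, namely Col3a1, Col5a2 and Col6a3, against 0.809%. Col5a2 was called at this rule in each of these fits. For 4 of the 10 members, Col3a1, Col6a1, Col6a2 and Col14a1, dyW1 lay below every WT library and the other dyW libraries above every WT library, an arrangement seen for 1.13% of all genes tested and for 2.73% of those with a mean of at least 50. This arrangement was chosen after its values were seen.

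**Figure D2:**
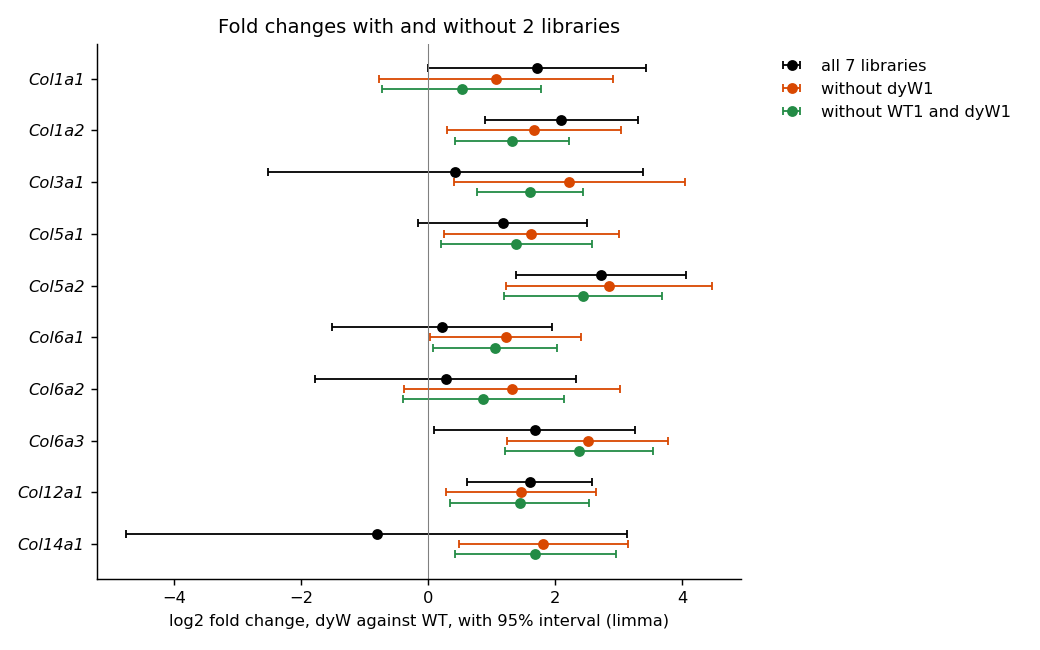
log2 fold change of dyW against WT for each collagen gene (point) with its 95% interval (bar) from limma, over all 7 libraries (black), without dyW1 (orange) and without WT1 and dyW1 (green). The interval of Col14a1 runs from −4.76 to 3.13 with all libraries and from 0.49 to 3.14 without dyW1. The intervals of Col1a2, Col5a2, Col6a3 and Col12a1 lie above 0 in all 3 fits.

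The sum of the 10 transcripts was 2687 in WT1 and 8109 to 9356 in the other WT libraries, against 22953, 24924 and 20816 in dyW1, dyW2 and the library labelled dyW3. The mean was 7244 ± 3081 (SD, n = 4) for WT against 22898 ± 2055 (SD, n = 3) for dyW. They took 0.107% to 0.222% of all reads on genes in the WT libraries and 1.64%, 1.08% and 1.16% in the dyW libraries. The 10 genes with the most reads took 43.3% to 77.3% of all reads on genes in WT and 16.4% to 37.6% in dyW, and 25530 to 29594 genes had a read in the WT libraries against 14209 to 19360 in the more deeply sequenced dyW libraries. The part of this make-up in the shares of the collagens was not tested. The sums of the dyW libraries were thus alike, but their make-up was not. In dyW1, Col1a1 and Col1a2 made up 89.4% of the collagen reads (exact 95% interval 89.2% to 89.5%), against 37.1% to 47.7% in the WT libraries, 31.9% in dyW2 and 31.9% in the library labelled dyW3. Col3a1 made up 1.01% in dyW1 (0.971% to 1.05%), 21.6% to 44.1% in WT, and 47.0% and 38.8% in the other dyW libraries. The type VI chains together made up 1.94% in dyW1 (1.89% to 2.0%), 10.2% to 21.6% in WT, and 10.5% and 17.5% in the other dyW libraries. Col5a1 and Col5a2 together made up 4.06% to 6.99% in each of the 7 libraries. Reads were amplified by PCR without molecular identifiers, so these intervals cover counting error only.

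**Figure D3:**
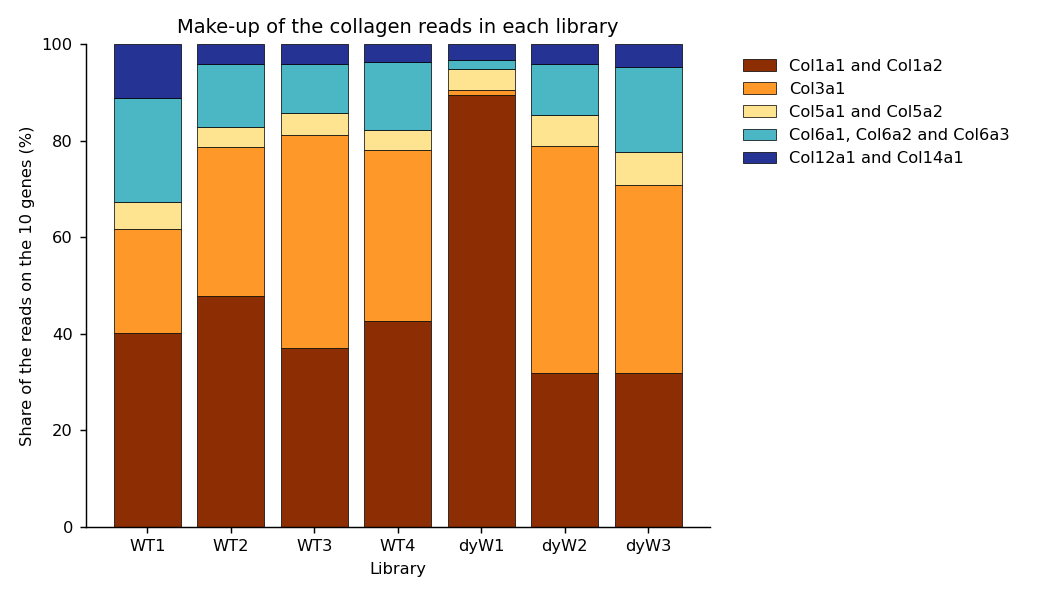
Share (%, stacked to 100) of the reads on the 10 collagen genes that fell on each collagen type, in each of the 7 libraries. The dyW1 bar is filled to 89.4% by Col1a1 and Col1a2, while Col3a1 fills 21.6% to 47.0% of every other bar.

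Ratios between members of the same library do not depend on the scaling of libraries. Of 10 ratios compared, 3 had groups that did not overlap, and none passed after adjustment (exact two-sided permutation test, P = 0.0571 each, 0.190 after Benjamini-Hochberg adjustment over the 10). Col6a3/Col6a1 was 0.508 to 0.708 in the WT libraries and 2.16, 1.02 and 2.34 in the dyW libraries, a mean difference of 1.46 on the log2 scale. Col6a3/Col6a2 was 0.667 to 2.18 in WT and 3.99, 2.26 and 2.98 in dyW, a difference of 1.41. The long type VI chain was thus higher against both short chains in all 3 dyW libraries, dyW1 included. Col5a1/Col5a2 was 0.471 to 1.53 in WT and 0.201, 0.433 and 0.371 in dyW, a difference of −1.56. In WT1 it rests on 16 reads of Col5a1 and 12 of Col5a2, and Col6a3/Col6a2 rests there on 37 and 17. The part of reads on genes not used in muscle in these ratios was not tested.

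The dyW1 library lay outside the range of the other 6 in 6 of the 10 ratios. Col3a1/Col1a1 was 0.0274 in dyW1 and 1.16 to 5.90 in the other 6. Col6a1/Col1a1 was 0.0142 in dyW1 and 0.212 to 0.859 in the others, and Col14a1/Col1a1 was 0.000115 and 0.0559 to 0.297. By contrast, Col1a1/Col1a2 was 0.703 in dyW1, inside the range of 0.333 to 1.28 of the others, and Col12a1/Col1a1 was 0.0889, inside the range of 0.0811 to 0.578. Set against Col1a1, Col1a2 and Col12a1 thus stayed within the range of the other libraries in dyW1, and Col3a1, Col6a1 and Col14a1 did not.

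**Figure D4:**
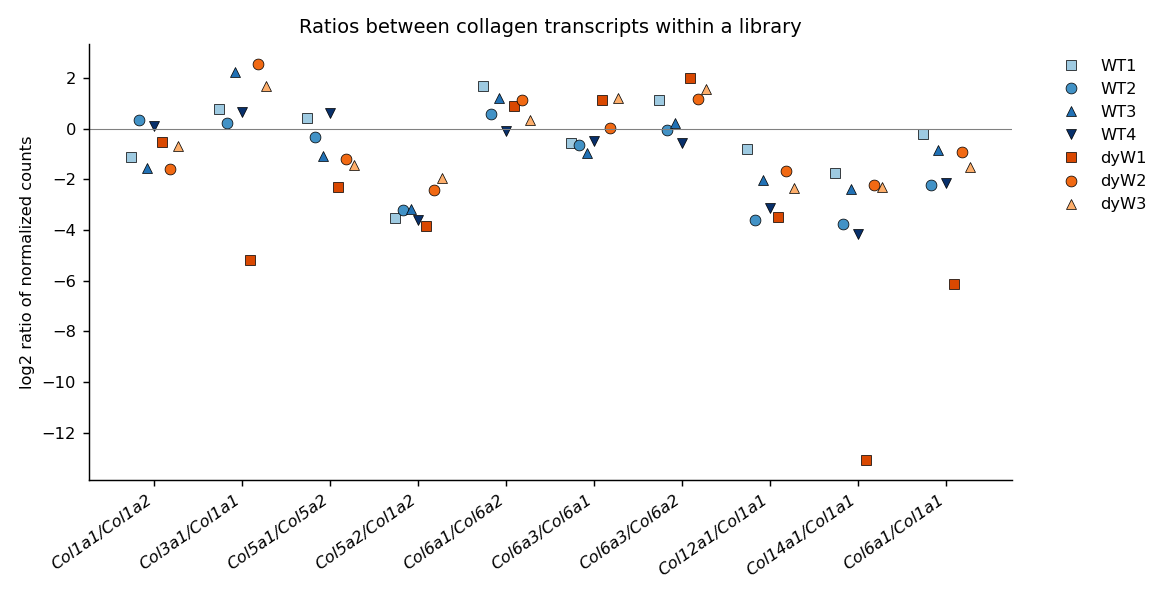
log2 ratio of the normalized counts of 2 collagen genes within a library, for the 10 ratios compared, with WT libraries in blue and dyW libraries in orange. The dyW1 library (orange square) lies far below the others in Col3a1/Col1a1, Col14a1/Col1a1 and Col6a1/Col1a1, and the 3 dyW libraries lie above the WT libraries in Col6a3/Col6a1 and Col6a3/Col6a2.

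Levels of different genes were compared per kb of exon. In WT the order of mean normalized counts per kb was Col3a1 (251), Col1a1 (205), Col1a2 (135), Col6a1 (72.3), Col6a2 (24.4), Col6a3 (22.0), Col14a1 (19.4), Col5a1 (16.8), Col5a2 (15.3) and Col12a1 (13.3). Of the 9 pairs of neighbours in this order, only Col6a1 and Col6a2 had ranges over the WT libraries that did not overlap. In dyW the order was Col1a1 (659), Col3a1 (650), Col1a2 (583), Col6a1 (117), Col6a3 (94.1), Col5a2 (89.5), Col14a1 (44.5), Col12a1 (41.0), Col5a1 (39.7) and Col6a2 (37.4), with gaps between the ranges only after Col1a2 and after Col5a2. By these means Col5a2 had rank 9 per kb in WT and rank 6 in dyW, but the ranks of single libraries overlapped. They were 10, 9, 5 and 10 in WT1 to WT4, and 3, 5 and 6 in dyW1, dyW2 and the library labelled dyW3. In WT1, 6 of the 10 members lay under the level per kb that 5% of receptor genes exceeded, against 1 in WT2, 0 in WT3, 3 in WT4, 1 in dyW1 (Col14a1), 0 in dyW2 and 1 in the library labelled dyW3 (Col12a1).

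The other collagen genes gave no higher call at either rule. None of the 6 other fibrillar collagens passed in limma, and 1 had an unadjusted P-value under 0.05. The most abundant of them was Col2a1, the collagen of cartilage, which was at 415690 normalized counts in WT1, 40.4 to 6462 in the other WT libraries and 0.126 to 195 in the dyW libraries. Of the 3 other type VI chains, Col6a4 and Col6a5 were called lower at both rules. Col6a5 was at 24.6 to 72.8 in WT and had no read in any dyW library, and Col6a4 was at 21.3 to 64.7 in WT and at most 0.682 in dyW. In the WT libraries, however, neither reached the level per kb that 5% of receptor genes exceeded in any of the 4. Col6a6, an alternative long chain of type VI, was at 28.3 to 51.2 in WT and at 3.02, 231 and 59.1 in dyW.

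Of the 7 other fibril-associated collagens tested, Col19a1 (32.0 to 72.4 in WT, 0.488 to 5.56 in dyW) and Col9a2 (43.1 to 15466 in WT, 0 to 32.8 in dyW) were lower at a limma adjusted P-value under 0.05, and Col9a3, a cartilage chain and the most abundant of them, went from 31326 in WT1 to 45.8 in WT2. Of the 9 basement membrane collagens, Col4a3 (16.0 to 62.0 in WT, 0 to 0.488 in dyW) and Col7a1 (32.0 to 123 in WT, 0 to 15.6 in dyW) were lower, while Col4a1, the main chain around muscle fibers and vessels, was at 213 to 557 in WT and 204, 1057 and 832 in dyW (log2 fold change 0.90, limma adjusted P-value of 0.335). Of the 9 network and transmembrane collagens, Col8a1 (32.0 to 73.8 in WT, 0 to 6.84 in dyW), Col8a2 (16.4 to 48.5 in WT, 0.390 to 2.44 in dyW) and Col26a1 (at most 240 in WT, 0 to 48.2 in dyW) were lower, and Col10a1, the collagen of hypertrophic cartilage, was at 4363 in WT3, 319 in dyW1 and at most 18.9 elsewhere. In none of the 4 WT libraries did Col19a1, Col4a3, Col7a1, Col8a1 or Col8a2 reach the level per kb that 5% of receptor genes exceeded, and Col26a1 reached it in 1. The level of Col4a3 per kb in WT was 0.470 to 0.917 times the median receptor gene. Col26a1 lost its call without WT1, without dyW1 and without the library labelled dyW3 (limma adjusted P-values of 0.123, 0.0828 and 0.0797). These collagens had median log2 fold changes of −1.55, −4.77, −4.21, −1.51 and −2.13, in the order fibrillar, type VI, fibril-associated, basement membrane, and network and transmembrane, beside −1.99 over all genes.

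Of 15 genes for folding and processing of collagen, Lox, the enzyme that cross-links fibrils, was the only one past the second rule. It was at 16.0, 99.8, 82.1 and 85.0 in the WT libraries and at 1735, 539 and 217 in the dyW libraries, without overlap (log2 fold change 3.32, SE 0.896, limma adjusted P-value of 0.0207). Leaving out dyW1 gave 2.54 (limma adjusted P-value of 0.0643). The call was also lost without both WT1 and dyW1, and WT1 held only 3 reads of Lox. Sparc, a collagen chaperone of the matrix and the most abundant of these genes, was at 47815 in WT1 and 2166 to 11664 in the other 6 libraries. The median of the 15 was −0.02.

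None of the 8 proteoglycans and glycoproteins that bind collagen passed in limma (1 at an unadjusted P-value under 0.05). Dcn, decorin, which coats fibrils and is made by fibroblasts, was at 96.0 to 2441 in WT and at 134, 5065 and 3255 in dyW, so that dyW1 lay at the low end of the WT range. Of the 11 collagen receptors, Antxr1 and Antxr2, the anthrax toxin receptors that bind collagens and take up type VI collagen, were higher at the second rule. Antxr2 was at 31.5 to 83.6 in WT and at 229, 253 and 205 in dyW (log2 fold change 2.18, limma adjusted P-value of 0.0187), and lost its call without both WT1 and dyW1 (limma adjusted P-value of 0.0605). Antxr1 was at 64.0 to 105 in WT and at 206, 245 and 332 in dyW (log2 fold change 1.65, limma adjusted P-value of 0.0366). Antxr1 lost its call on leaving out WT1, the library labelled dyW3, or both WT1 and dyW1 (log2 fold changes of 1.54, 1.47 and 1.70, limma adjusted P-values of 0.0589, 0.0748 and 0.0544). Itgb1, the shared beta chain of collagen-binding integrins, was at 151 to 496 in WT and 1025, 960 and 449 in dyW, which did not pass (limma adjusted P-value of 0.0676). None of the 4 WT libraries held Antxr1 or Antxr2 above the level per kb that 5% of receptor genes exceeded, and neither did the library labelled dyW3 (30.6 and 27.4 per kb).

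Markers of the cells known to make these collagens differed between libraries too. Of the 8 fibroblast markers, Pdgfra was higher (at most 123 in WT and 280, 296 and 337 in dyW, log2 fold change 1.98, limma adjusted P-value of 0.0286) and Pi16 lower (36.9 to 309 in WT and 1.47 to 12.1 in dyW, log2 fold change −4.24, limma adjusted P-value of 0.00886). Pdgfra lost its call on leaving out dyW1 or the library labelled dyW3 (log2 fold changes of 2.04 and 1.91, limma adjusted P-values of 0.0502 and 0.0504). Only in WT1 did Pi16 exceed the level per kb that 5% of receptor genes exceeded, and in the other WT libraries it was 1.44 to 2.26 times the median receptor gene. The 8 summed to 617 to 997 in WT and to 666, 3336 and 2339 in dyW. Most of the sum was Mfap5 and Dpt in dyW2, and Mfap5 (1036) and Cd34 (714) in the library labelled dyW3. Of the 8 markers, 5 had a positive log2 fold change. Besides Pi16, those of Osr1 and Thy1 were negative, without a call. Osr1 was at 10.7 to 72.8 in WT and at 0, 5.94 and 10.3 in dyW. Thy1 was at 5.33 to 28.3 in WT and at 1.85, 6.70 and 0 in dyW. The dyW1 library had 3 of the 8 fibroblast markers at 0, among them Dpt and Mfap5, which were at 754 and 1650 in dyW2. The 5 tendon markers summed to 69.3 to 531 in WT and to 60.1, 1427 and 352 in dyW, with Tnmd, Thbs4 and Kera at 0 in dyW1. Mkx, of the same list, went the other way and was highest in dyW1. It was at 56.6 there, 25.2 to 29.7 in WT, and 29.2 and 17.6 in the other dyW libraries. The libraries with the highest summed fibroblast markers, dyW2 and the library labelled dyW3, were those with the highest Col3a1, Col5a1, Col5a2, Col6a1, Col6a2, Col6a3 and Col14a1, and the library with the bone markers was that with the highest Col1a1, Col1a2 and Col12a1. Their part in the collagen differences was not tested.

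**Figure D5:**
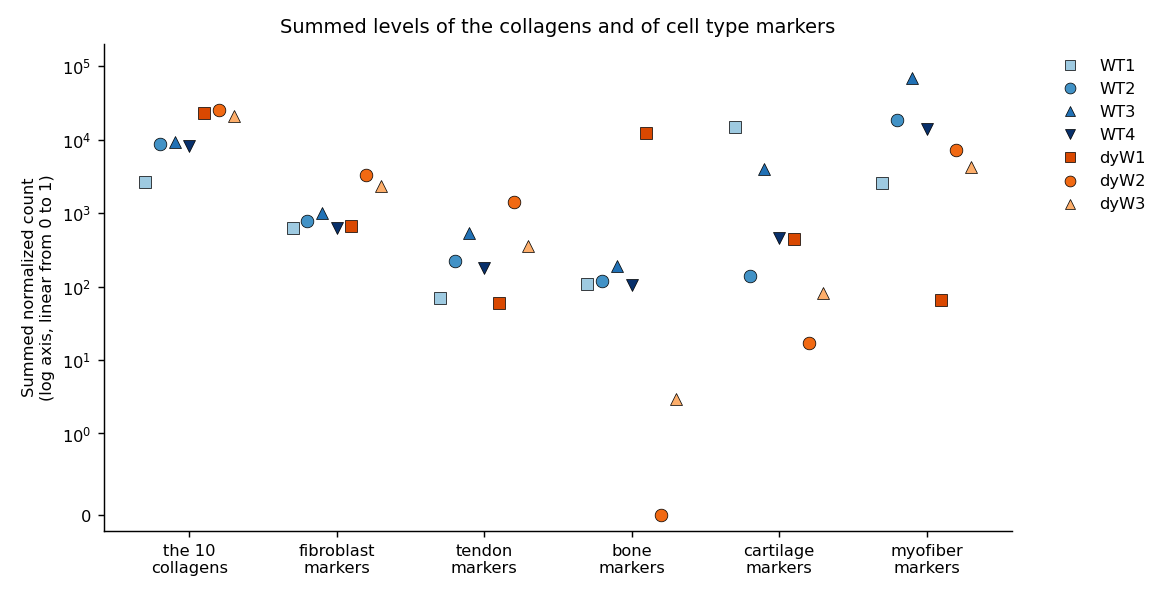
Summed normalized count (log axis, linear between 0 and 1) of the 10 collagens and of the markers of 5 cell types in each library. The dyW1 library (orange square) holds 12216 of bone markers and 65.4 of myofiber markers, and WT1 (light blue square) holds 14618 of cartilage markers, while the 10 collagens sum to 20816 to 24924 in the dyW libraries.

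None of the 8 myofiber markers was higher in dyW, and Ttn, the giant spring protein of the sarcomere, was lower at the second rule (203 to 556 in WT and 31.9 to 166 in dyW, log2 fold change −2.66, limma adjusted P-value of 0.0201). Without dyW1 the log2 fold change of Ttn was −2.20 and did not pass (limma adjusted P-value of 0.0594). The WT level of Ttn per kb was 0.505 to 0.880 times the median receptor gene. None of the 6 bone, 5 tendon, 4 endothelial or 4 immune markers passed either rule in limma, where 0, 1, 1 and 1 of them had an unadjusted P-value under 0.05. Of the 6 cartilage markers Ucma was lower (21.6 to 3236 in WT, 0 to 1.95 in dyW), and of the 4 smooth muscle and pericyte markers tested Myh11 was lower (24.6 to 85.0 in WT, 0 to 34.2 in dyW). Myh11 lost its call without WT1 and without dyW1 (limma adjusted P-values of 0.110 and 0.108), and in none of the 4 WT libraries did Myh11, Ttn or Pdgfra reach the level per kb that 5% of receptor genes exceeded, nor did Pdgfra in the library labelled dyW3. The most abundant genes of the last lists were Pecam1 (119 to 283 in WT and 67.9 to 186 in dyW), Acta2 (53.3 to 2138 in WT and 0.487, 445 and 532 in dyW) and Ptprc (58.6 to 120 in WT and 0, 0 and 99.6 in dyW), for endothelial, smooth muscle and immune cells.

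The mean profile of the 10 members over the 7 libraries, with each gene centred on its own mean of log2(normalized count + 1), was −1.39 in WT1, −0.23 to −0.09 in the other WT libraries, −0.70 in dyW1, 1.30 in dyW2 and 1.30 in the library labelled dyW3. Among 6111 genes with a mean of at least 50, the 5 outside the lists with the highest Pearson correlation to this profile were Tsnax (0.984), Meox2 (0.982), Exoc3 (0.979), Tbca (0.976) and Epha3 (0.973). These are descriptions over 7 libraries that share their depth and scaling. Meox2, a homeobox gene of limb and muscle development, was at 21.3 to 102 in the WT libraries and at 38.0, 230 and 329 in the dyW libraries.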

How the data were processed

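RNA of muscle fibers was amplified as full-length cDNA (SMART-seq2), tagmented and sequenced in 4 WT and 3 dyW libraries. Per the study's methods and the labels, reads were trimmed (Cutadapt), mapped to GRCm39 (RNA STAR) and, where mapped uniquely, counted per gene (FeatureCounts). Tool versions, annotation release and strand setting are not given in the sources used here, so overlapping and antisense genes (99.2% of genes matched GENCODE release 39, which gave positions and exon lengths) are uncertain. The authors deposited normalized counts, which are reads divided by 1 size factor per library, as a table with decimal commas. They also deposited their DESeq2 comparison (fold changes and P-values), which was not used. The number of value columns left without a sample was 0.

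Each library was divided by the value of 1 read (5.33, 2.70, 2.05 and 3.15 normalized counts in WT1 to WT4, and 0.0974, 0.126 and 0.488 in dyW1 to dyW3). Within a tolerance of 0.01 read, 100% of the values came out whole. Genes with a mean of at least 5 were compared in limma 3.58.1 (R 4.3.3) by lmFit and eBayes (trend on) with Benjamini-Hochberg adjustment, on log2(normalized count + 1), a scale that understates changes of low genes. The call rules were an adjusted P-value under 0.01 or under 0.05, each with an absolute log2 fold change over 1.5. The script was tested on simulated data. Tables, exact tests and figures were made with Python 3.11.15 (scipy 1.17.1, pandas 2.3.3, numpy 2.4.6, matplotlib 3.10.9). A count of 0 allows up to 3 reads. No 2 libraries were identical. The members, lists and tests were chosen with earlier results of these data known. Named genes were the members, Lama2, called genes and the highest-mean gene of each list, and the 5 genes most like the members. Further names were picked with their values in view. The alternatives were other pseudocounts, filters, scalings, a replicate block and each library left out, and, chosen after seeing the data, voom on recovered reads and the fit without WT1 and dyW1.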

Additional observations from a re-analysis of the deposited data

How the results depend on the processing

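The log2 fold changes of Col1a1, Col1a2, Col5a1, Col5a2, Col6a3 and Col12a1 were positive under all 16 alternatives. The number of members called higher at an adjusted P-value under 0.01 was 1. It was 2 with a pseudocount of 0.1 (with Col12a1), and 0 with a pseudocount of 10, a mean of at least 50, the same total, quantile normalization, the replicate block, voom, or without WT1 and dyW1, and it ranged from 0 to 1 with a single library left out. Col5a2 lost this call without WT2, WT4, dyW1, dyW2 or the library labelled dyW3 (limma adjusted P-values of 0.0182 to 0.0292). At an adjusted P-value under 0.05 the number was 3. It was 1 with a pseudocount of 10, 0 with a mean of at least 50, 6 with the same total (with Col1a1, Col5a1 and Col6a3), 0 with quantile normalization, 0 with the replicate block and 2 with voom (Col12a1 lost at 0.0513), and 2 to 3 with a library left out. By the second rule Col1a2 was lost only without dyW1 (0.0658) among the single libraries left out, Col12a1 without WT2, WT4, dyW1 or dyW2 (0.0548 to 0.0650), Lox without dyW1 (0.0643), Antxr2 without WT4 (0.0582), Antxr1 without WT1, WT2, WT4, dyW2 or the library labelled dyW3 (0.0589 to 0.0899) and Pdgfra without WT2, WT4, dyW1, dyW2 or the library labelled dyW3 (0.0502 to 0.0802), all limma adjusted P-values. Of the lower calls, Ttn was lost without WT2, WT4 or dyW1 (0.0594 to 0.0701), Col9a2 without WT3 or dyW2 (0.0703 and 0.0688), Col7a1 without WT2 or WT4 (0.0524 and 0.0533), Col26a1 without any single library but dyW2 (0.0657 to 0.123), Myh11 without any but the library labelled dyW3 (0.0699 to 0.138), and Ucma without both WT1 and dyW1 (0.05004). Of the 20 named genes called at the second rule, voom lost 11, among them Pdgfra (0.0745), Antxr2 (0.137), Antxr1 (0.210) and Lox (0.174), and called 28 genes higher in all against 259. The same total lost 6, among them Ttn (0.118) and Pi16 (0.0585), quantile normalization 19, all but Col6a5, and the replicate block all 20. The fit without both WT1 and dyW1 lost 9, namely Col1a2, Col12a1, Lox, Antxr1, Antxr2, Col7a1, Col26a1, Myh11 and Ucma. With a mean of at least 50 over 6111 genes, which leaves 12 of the 20 and loses each of them, 0 genes in all were called higher and the limma adjusted P-value of Col5a2 was 0.0998. The log2 fold change of Col3a1 ranged from −0.60 to 2.22, of Col6a1 from −0.34 to 1.22, of Col6a2 from −0.38 to 1.32 and of Col14a1 from −2.19 to 1.82 with a library left out, the last reversing without dyW1. Reversals elsewhere were Col6a1 (−0.46) and Col6a2 (−0.43) after quantile normalization, Col6a2 (−0.065) with voom, and Col14a1 with the same total (0.17) and without WT1 and dyW1 (1.69). The cause was not tested. The replicate numbers were only names: deviations of same-numbered libraries correlated at 0.147, −0.05 and −0.09, and WT4 has no partner. With the block, 0 genes in all were called higher at either rule. The count tests on recovered reads and the TMM factors planned as alternatives were not run. At 470804 reads WT1 limits every low member: it held 12 reads of Col5a2, 16 of Col5a1 and 17 of Col6a2.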
